A study of Equus caballus with 12 samples.

Results

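REEP3 and REEP6 code for receptor accessory proteins, small membrane proteins of the endoplasmic reticulum (ER). They are the genes whose name starts with REEP in the supplementary files of the study, and they are 2 of 11425 genes in the deposited table of pooled horse oocytes. They are listed as ENSECAG00000019662 (REEP3) and ENSECAG00000033446 (REEP6). REEP3 was chosen because the study calls it differentially expressed (DE) between VMAT and each of the other groups, and REEP6 because it is so called between VIM and each of the other groups. The levels in those comparisons are therefore a description without a test. The other comparisons, VIM vs. FR for REEP3 and VMAT vs. FR for REEP6, were tested. The study lists no call for the gene there, and they share samples with the comparisons used for the choice. These tests are therefore not independent of the choice.

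Messenger RNA was sequenced with a 3′ transcriptome kit from pools of in vitro matured Equus caballus oocytes, on average 23 oocytes per pool per the labels. All oocytes came from slaughterhouse ovaries and were sampled as denuded oocytes with an extruded polar body. In the control group (FR, 5 samples) they were fresh and never vitrified. In VMAT (3 samples) they were vitrified in metaphase II, after in vitro maturation and denuding, then warmed and cultured briefly. In VIM (4 samples, VGV in the labels) they were vitrified in the germinal vesicle stage, while still surrounded by corona radiata cells. They were then warmed and matured in vitro. Stage, cell cover and time from warming to sampling therefore differ together between VMAT and VIM. Maturation medium with follicle-stimulating hormone and luteinizing hormone was common to all groups, and neither genotype nor age of the mares is given in the sources used here. The FR and VMAT oocytes were matured together and assigned to their groups afterwards. Nothing in the labels says which mares a pool came from, so p-values speak only for these pools and not for mares. Within a pool, fewer oocytes holding a transcript and less of it per oocyte cannot be told apart.

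The ER of an animal cell is a network of flat sheets and thin tubules, and its shape is set by proteins that bend, fuse or anchor the membrane. REEP proteins lie in the membrane as hairpins and favour curved tubules. The family falls into a branch of REEP1 to REEP4, which also bind microtubules, and a branch of REEP5 and REEP6. In dividing cells REEP3, together with REEP4, keeps ER membrane away from the condensed chromosomes. REEP6 is best known from rod photoreceptors and from the testis. In oocytes the ER is the main calcium store, and it is rearranged during meiotic maturation.

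The values are normalized counts, which are read counts divided by 1 size factor per sample. They were whole multiples of a single step in each sample, so the whole counts behind them could be recovered. These counts are called reads here. The authors processed molecular identifiers, so the counts may be of molecules rather than of sequenced reads. Samples held 1636620 to 12166950 reads on genes, and 3 reads corresponded to a normalized count between 0.376 (VMAT replicate 2) and 9.34 (VMAT replicate 1). The normalized counts summed to 1523765 in VMAT replicate 2 and 5092878 in VMAT replicate 1, the lowest and highest sums of all samples, so these VMAT samples stand apart in scale. Of the 3530 genes with a mean normalized count of at least 100, 68.8% were under 10 in some samples and at 100 or more in others, the background against which the levels of the REEP genes stand. Of 14 oocyte markers, 7 were found by name, and their summed normalized count was 5829 to 11239 in VIM, 7551 to 15698 in VMAT and 8077 to 13820 in FR. BTG4, a regulator of maternal mRNA decay, was at 3177 or more in every sample, whereas FIGLA, an oocyte transcription factor, was at 0 in VMAT replicate 1. Of 17 cumulus and granulosa markers, only HAS2, which makes the hyaluronan of the expanded cumulus, was found by name, at 641 to 2144 in VIM, 254 to 1755 in VMAT and 462 to 1239 in FR. Its part in the REEP levels was not tested.

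REEP3 stood high in the oocytes vitrified after maturation and at no more than 5 reads in nearly all the others. In VMAT its normalized count was 3224 in replicate 1, 635 in replicate 2 and 1186 in replicate 3. In VIM it was 3.07, 3.26, 6.03 and 4.89 in replicates 1 to 4. In FR it was 4.31, 2.29, 1.68, 136 and 2.86 in replicates 1 to 5. Every VMAT sample was thus above every other sample, VIM and FR samples overlapped, and FR replicate 4 lay between the 2 levels. The mean of VMAT was 1682 ± 1364 (SD, n = 3), against 4.31 ± 1.41 (SD, n = 4) for VIM and 29.5 ± 59.7 (SD, n = 5) for FR.

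**Figure D1:**
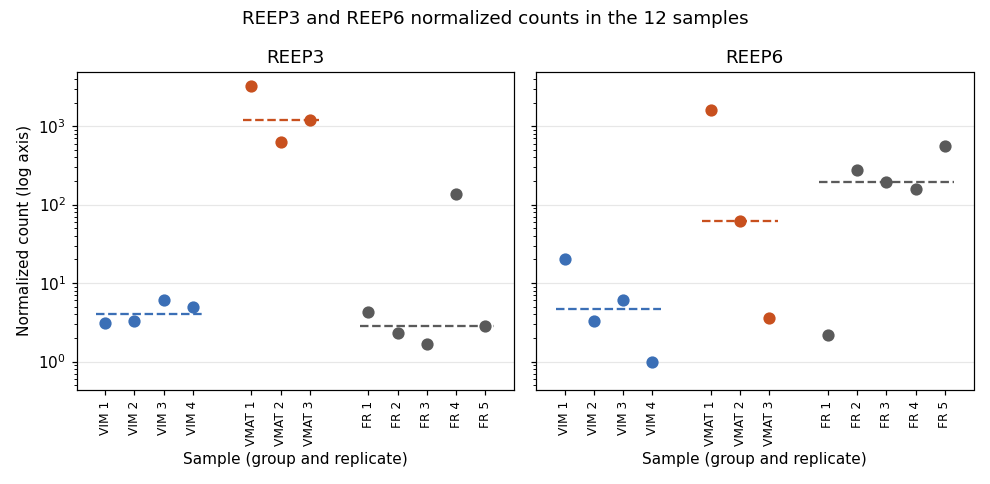
Normalized counts (log axis) of REEP3 (left) and REEP6 (right) in each sample, by group and replicate, with dashed lines at the group medians. The 3 VMAT samples lie between 635 and 3224 for REEP3, and the REEP6 values of VMAT spread from 3.54 to 1596.

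The low and high levels of REEP3 were far apart in reads as well. The VMAT samples held 1036, 5070 and 1006 reads of REEP3, and FR replicate 4 held 270 reads. The other 8 samples held 2 to 5 reads each, 30 reads in all, or 0.405% of the 7412 reads of this gene. No sample had a normalized count between 10 and 100. In VMAT, REEP3 ranked 362nd, 495th and 548th of the 11425 genes by normalized count, above 91.1% to 94.8% of the genes detected in the sample, which are those with a value above 0. In FR replicate 4 it was above 63.4% of the genes detected. In the other samples it was above 22.8% to 39.2% of them.

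The spread of REEP3 within VMAT depended on the scale. In reads per 1000000 reads on genes (RPM), REEP3 was at 633 in replicate 1 (95% exact binomial interval 595 to 673), 417 in replicate 2 (405 to 428) and 411 in replicate 3 (386 to 437). These intervals cover counting error only. The highest VMAT sample was 5.08 times the lowest in normalized counts and 1.54 times the lowest in RPM. On the latter scale replicates 2 and 3 did not differ beyond their counting intervals, and replicate 1 was above both. FR replicate 4 was at 57.3 RPM (50.6 to 64.5), and the other VIM and FR samples were at 0.693 to 1.98 RPM.

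**Figure D2:**
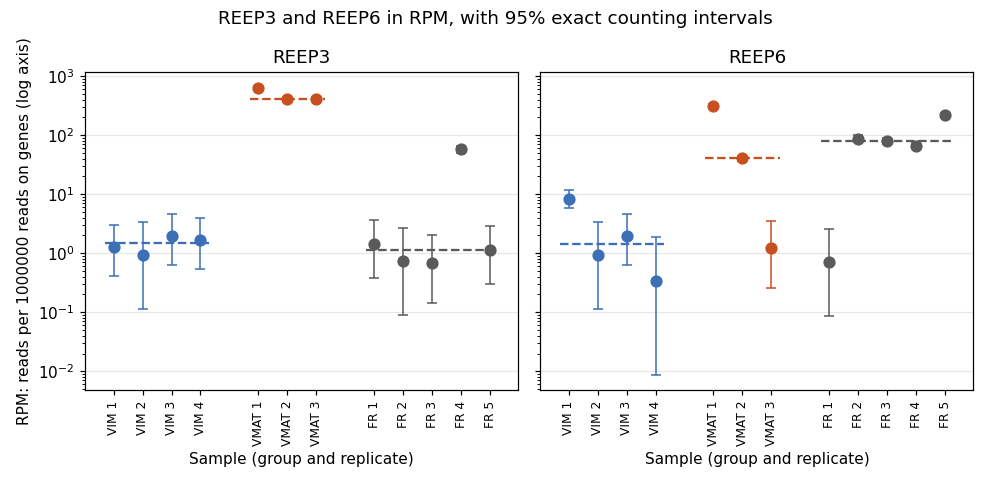
RPM (reads per 1000000 reads on genes, log axis) of REEP3 (left) and REEP6 (right) in each sample, with exact 95% binomial intervals as bars and dashed lines at the group medians. REEP3 lies between 411 and 633 RPM in VMAT, a narrower range than in normalized counts.

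As a description, REEP3 differed by a log2 fold change of 7.47 (SE 2.04) for VMAT over FR and of -8.02 (SE 2.31) for VIM over VMAT, where SE is the standard error from the limma fit of all genes on log2 of the normalized count plus 1. That fit draws the spread of each gene towards a trend over all genes, so its SE and p-values do not rest on the gene alone. The pooled SD of REEP3 itself in VIM vs. VMAT was 0.803 on this log2 scale. On the same scale the change of a gene near 0 is understated. Of the 8305 genes tested in VMAT vs. FR, 1.96% had all VMAT samples above all FR samples, and of the 7627 genes tested in VIM vs. VMAT, 2.78% had all VIM samples below all VMAT samples. Because REEP3 was chosen from these comparisons, nothing follows from its place among those genes.

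REEP3 was not chosen for a call in VIM vs. FR, and there the gene showed no difference beyond the spread between samples. On the log2 scale VIM averaged 2.37 ± 0.378 (SD, n = 4), and FR averaged 2.92 ± 2.36 (SD, n = 5). It came to a log2 fold change of -0.55 (SE 1.92, 95% interval -4.51 to 3.41), with a limma adjusted p of 0.984. An exact two-sided permutation test over 126 permutations gave p = 0.968, adjusted to 0.968 over the 2 REEP comparisons tested, where the smallest possible p is 0.0159. FR replicate 4 set the sign of this value, since without it it was 0.50 (SE 1.59). The size depended on the tool, at -2.94 with edgeR (adjusted p = 0.656) and -2.76 with DESeq2 (no adjusted p given) on the recovered reads. The interval is wide, so a difference of several log2 units in either direction was not detectable with these samples.

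REEP6 stood high in most fresh samples, low in the oocytes vitrified before maturation, and at very unequal levels in VMAT. In FR its normalized count was 2.16, 275, 194, 158 and 564 in replicates 1 to 5. In VIM it was 20.3, 3.26, 6.03 and 0.978 in replicates 1 to 4. In VMAT it was 1596 in replicate 1, 61.5 in replicate 2 and 3.54 in replicate 3. All VIM samples were below 4 of the 5 FR samples, but FR replicate 1 lay among the VIM samples, and so did VMAT replicate 3. The mean of FR was 239 ± 207 (SD, n = 5), against 7.63 ± 8.67 (SD, n = 4) for VIM and 554 ± 903 (SD, n = 3) for VMAT.

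In reads, REEP6 was at 240 to 788 in FR replicates 2 to 5 and at 2 in FR replicate 1. VIM replicate 1 held 33 reads, and the other VIM samples 1 to 5. VMAT replicates 1 and 2 held similar numbers, 513 and 491 reads, but replicate 2 had far more reads in total, so that they came to 314 (95% exact binomial interval 287 to 342) and 40.4 (36.9 to 44.1) RPM. VMAT replicate 3 held 3 reads. REEP6 was thus under 10 in 5 samples, between 10 and 100 in 2 samples and at 100 or more in 5 samples. Its highest rank was 795th of all genes, in VMAT replicate 1.

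VIM differed from FR by a log2 fold change of -4.19 (SE 2.11) for REEP6, and from VMAT by -3.69 (SE 2.87), again as a description, since the gene was chosen from these comparisons. The latter value rested on single VMAT samples: it was -1.50 without VMAT replicate 1 and -5.73 without VMAT replicate 3. It was -6.17 with DESeq2. In both comparisons the groups overlapped for REEP6.

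REEP6 was not chosen for a call in VMAT vs. FR, and its difference there was smaller than the spread within either group. On the log2 scale VMAT averaged 6.26 ± 4.24 (SD, n = 3), and FR averaged 6.77 ± 2.94 (SD, n = 5). That is a log2 fold change of -0.50 (SE 1.98, 95% interval -4.53 to 3.52), with a limma adjusted p of 0.995. The exact two-sided permutation test over 56 permutations gave p = 0.893, adjusted to 0.968 over the 2 REEP comparisons tested, and 0.0357 is the smallest p it allows. The sign turned with single samples: the log2 fold change was 1.54 without VMAT replicate 3, 0.09 without FR replicate 5, -2.69 without VMAT replicate 1 and -1.78 without FR replicate 1. It also turned with the tool, to 0.57 with edgeR (adjusted p = 0.972) and 1.23 with DESeq2 (adjusted p = 0.873) on the recovered reads.

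**Figure D3:**
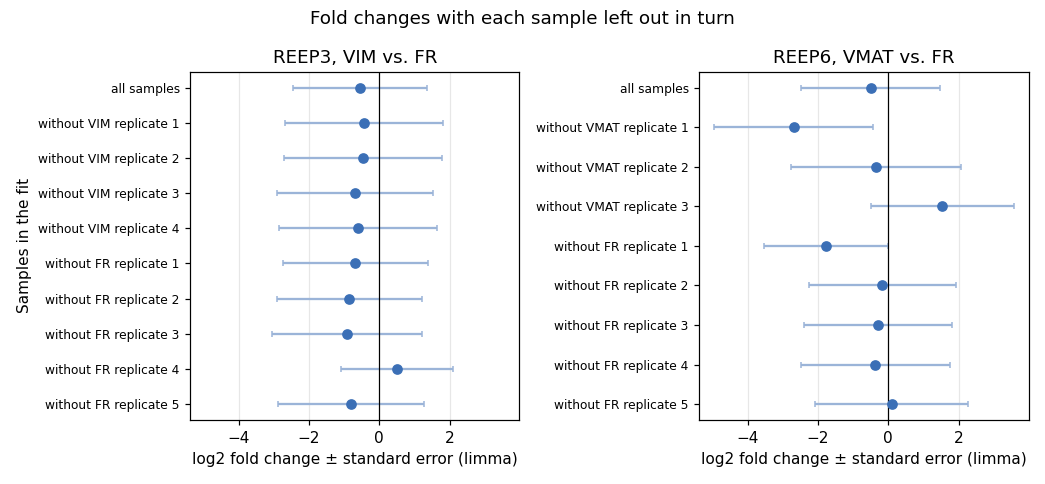
Log2 fold change (points) and standard error (bars) from limma for REEP3 in VIM vs. FR (left) and REEP6 in VMAT vs. FR (right), with all samples and with each sample left out in turn. REEP3 crosses 0 only without FR replicate 4, and REEP6 lies between -2.69 and 1.54.

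The genes did not share one pattern over the samples. Both were at 100 or more in 2 samples, VMAT replicate 1 and FR replicate 4, and both were under 10 in 4 samples, VIM replicates 2, 3 and 4 and FR replicate 1. REEP3 was at 100 or more with REEP6 under 100 in VMAT replicates 2 and 3. REEP6 was at 100 or more with REEP3 under 10 in FR replicates 2, 3 and 5. In VIM replicate 1 REEP3 was at 3.07 and REEP6 at 20.3. The order of the genes therefore differed between groups: REEP3 was above REEP6 in every VMAT sample, and REEP6 above REEP3 in 4 of the 5 FR samples, all but replicate 1. With a 3′ kit, reads are drawn from the transcript end, and these orders are of normalized counts not scaled by length.

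**Figure D4:**
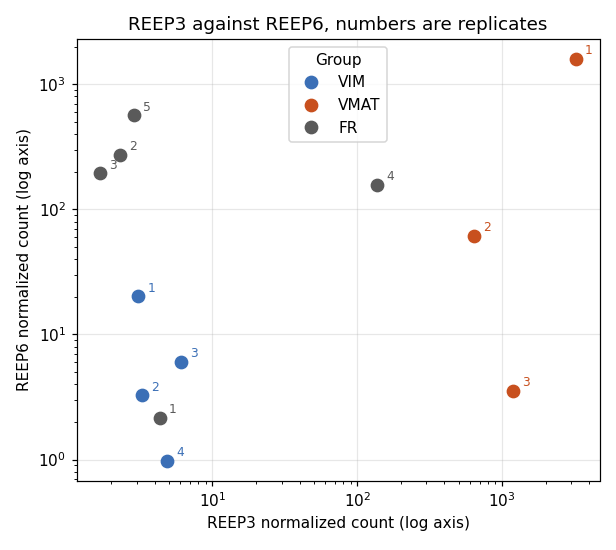
Normalized count of REEP3 (horizontal, log axis) against REEP6 (vertical, log axis) in the 12 samples, coloured by group and numbered by replicate. VMAT lies to the right, FR replicates 2, 3 and 5 at the upper left, and VIM at the lower left together with FR replicate 1.

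The genes most like each REEP gene were looked for over the 12 samples, by Pearson's r of log2 values among 7395 genes with a mean normalized count of at least 10. The samples differ in group and depth, both of which enter r, and r is given as a description. For REEP3 the most similar gene of all was ACLY (ATP citrate lyase, which makes cytosolic acetyl-CoA), with r = 0.962. ACLY was at 2639, 110 and 1078 in VMAT replicates 1 to 3, at 0 to 3.62 in VIM and at 0.560 to 14.1 in FR. The next named genes were the phosphatase DUSP12 (r = 0.820), the RNA-binding protein LARP1 (0.808), the Golgi membrane protein TMEM165 (0.778) and the endosomal GTPase RAB5C (0.764), with 18 genes without a name above the last of them. A pattern was written down after the values were seen. It asked for at least 100 in every VMAT sample and under 10 in at least 8 of the 9 other samples. It was met by 3 of the 11425 genes, of which REEP3 and ACLY have a name. Because the pattern was shaped on REEP3, nothing follows from how few genes meet it.

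For REEP6 the most similar genes with a name were FBXO11, a subunit of a ubiquitin ligase (r = 0.851), MTHFD2 (0.838), RPS10 (0.811), R3HCC1L (0.802) and TSPAN3 (0.798). MTHFD2, an enzyme of mitochondrial folate metabolism, was at 46.4 in FR replicate 1 and at 587 to 1308 in the other FR samples. It was at 55.4 in VMAT replicate 3 and at 316 and 1475 in the other VMAT samples. In VIM, where REEP6 was low in every sample, MTHFD2 was at 608, 189, 206 and 294, above its lowest FR and VMAT values. RPS10, a protein of the small ribosomal subunit, was at 4.31 in FR replicate 1, at 23.7 to 324 in the other FR samples and at 0 to 3.91 in VIM. Several of these genes also spread widely among VIM samples, R3HCC1L from 5.87 to 1341.

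The other REEP genes, REEP1, REEP2, REEP4 and REEP5, were not found by name and are not analysed here. Of the other 36 genes listed as shaping the ER, 16 were found by name, and none of them was DE with limma in any comparison (smallest adjusted p 0.902), where 0% of all genes tested were DE. Nor were any of these 16 genes called on the recovered reads, where over all genes edgeR called 0%, 0.012% and 0.0131% and DESeq2 6.87%, 4.26% and 3.87% (in the order VIM over FR, VMAT over FR, VIM over VMAT, here and in the next sentences). An unadjusted limma p under 0.05 was found for 2, 0 and 0 of the 16 genes, against 3.78%, 3.62% and 2.98% of all genes tested. The median log2 fold change of the 16 genes was -0.35, -0.20 and 0.07, and that of all genes tested was -0.12, 0.01 and -0.08. Of the 13 of these genes with a mean normalized count of at least 100, 7 (53.8%) were under 10 in some samples and at 100 or more in others, as both REEP genes were, against the 68.8% of all genes with such a mean.

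**Figure D5:**
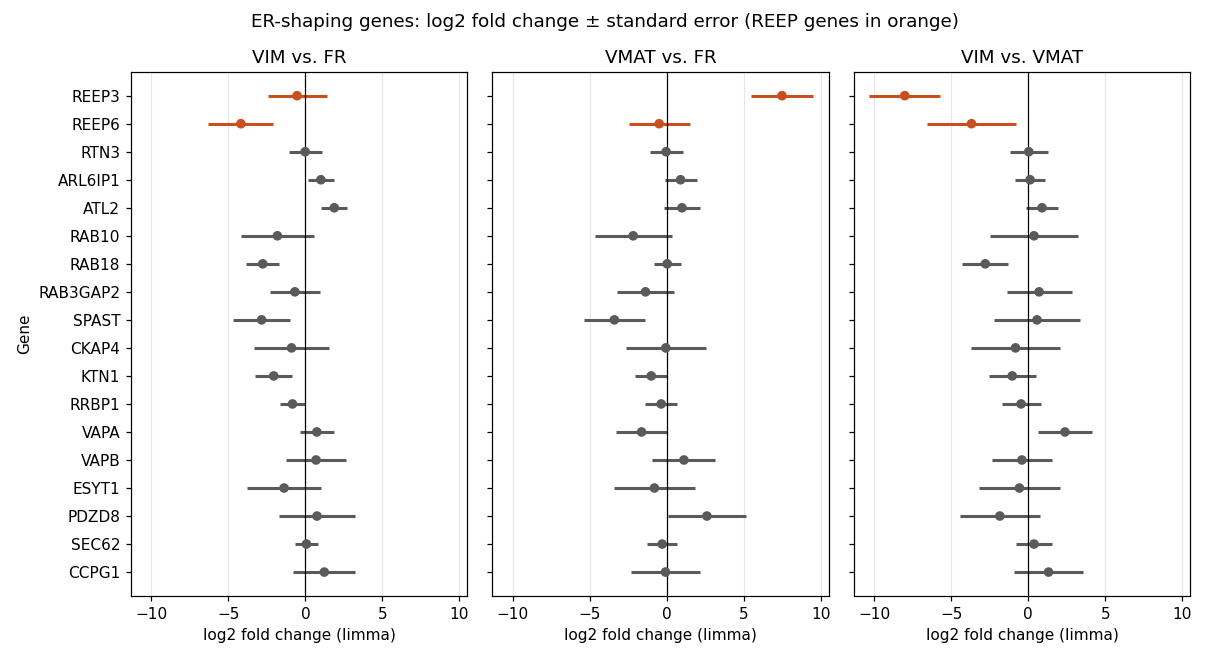
Log2 fold change (points) and standard error (bars) from limma for REEP3 and REEP6 (orange) and 16 other ER-shaping genes (grey) in the 3 comparisons. REEP3 is at 7.47 for VMAT over FR and -8.02 for VIM over VMAT. REEP6 is at -4.19 for VIM over FR and -3.69 for VIM over VMAT. These values lie outside the range of the 16 other genes (-3.41 to 2.60). The REEP genes were chosen for calls in these comparisons, whatever the direction of the call.

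Among proteins that curve ER tubules, ARL6IP1 and RTN3 had the highest means of the lists, at 1484 and 1172 over the 12 samples. ARL6IP1, a hairpin protein, was at 592 to 2613 in VIM, 514 to 2981 in VMAT and 86.9 to 2921 in FR. RTN3, a reticulon, was at 70.4 to 4794 in VIM, 413 to 1223 in VMAT and 117 to 2135 in FR. Both were above 10 in every sample, unlike REEP3 and REEP6. For VMAT over FR their log2 fold changes were 0.89 (SE 1.04) and -0.05 (SE 1.08), each with a 95% interval that held 0.

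Tubule fusion and the junctions of the network depend on atlastins and on small GTPases. ATL2, an atlastin that fuses tubules, had the highest log2 fold change of the lists in VIM vs. FR, at 1.87 (SE 0.842, limma adjusted p = 0.902). It was at 890 to 1839 in VIM and 106 to 1360 in FR. RAB18, a GTPase of ER tubules and lipid droplets, is outside the rule for named genes and was singled out after its values were seen. It was at 600, 507, 85.6 and 17.6 in VIM, at 1808, 812 and 750 in VMAT and at 642 to 1346 in FR. VIM samples were thus below all FR samples, which held for 0.639% of all genes in that comparison, and below all VMAT samples, which held for 2.78% of all genes in that one. VIM differed from FR by a log2 fold change of -2.77 (SE 1.06, limma adjusted p = 0.902) and from VMAT by -2.79 (SE 1.49, limma adjusted p = 0.967).

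SPAST, which severs microtubules and binds the ER, had the lowest log2 fold change of the 16 genes both for VIM over FR (-2.85, SE 1.85) and for VMAT over FR (-3.41, SE 1.99). Its level ran from 3.26 to 778 in VIM and from 11.2 to 722 in FR, and it was at 18.7, 335 and 0 in VMAT, so the groups overlapped in both comparisons. RAB10, a GTPase at the tips of growing tubules, followed in VMAT vs. FR with -2.19 (SE 2.51). It was at 1.18 to 66.3 in VMAT and 1.43 to 341 in FR.

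Among sheet and contact proteins, the largest log2 fold change in VMAT vs. FR after REEP3 was that of PDZD8, which tethers the ER to other organelles, at 2.60 (SE 2.53). It was at 1599, 88.2 and 2.36 in VMAT replicates 1 to 3 and at 1.51 to 570 in FR. VAPA, a tether at contact sites, was highest in VIM vs. VMAT at 2.38 (SE 1.77), with 204 to 678 in VIM and 6.22 to 305 in VMAT. CCPG1, a receptor for the autophagy of ER, had log2 fold changes of 1.22 (SE 2.01) for VIM over FR and 1.31 (SE 2.25) for VIM over VMAT. The adjusted p from limma was at least 0.902 for each of these genes in each comparison.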

How the data were processed

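After a check of RNA amount and quality, the authors kept every FR replicate but not every VIM or VMAT replicate. They trimmed the reads (Trim Galore), mapped them to EquCab3.0 with STAR, and used UMI-tools for the molecular identifiers and RSEM for the counts. Before testing they left out a further VMAT sample of low quality. They deposited a signal per gene and sample: the count divided by a DESeq2 size factor. Dividing by the smallest value above 0 of each sample gave whole reads for 100.0% of values (tolerance 1e-06). These reads were used for edgeR 4.0.16, DESeq2 1.42.0, depth and RPM (reads per 1000000 reads on genes).

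Each comparison used its own samples and tested genes detected in 4 samples (VIM vs. FR) or 3 samples (the others), the size of the smaller group, or more. The test was limma 3.58.1 (eBayes with trend) in R 4.3.3 on log2 of the normalized count plus 1. DE genes passed 0.05 for the p adjusted by Benjamini-Hochberg over the table, with a log2 fold change of 1 or more in size. Exact permutation tests (scipy 1.17.1) compared mean log2 values, and binomial intervals were Clopper-Pearson.

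The members and gene lists were chosen with earlier results of these data known. Symbols were read from both supplementary files, which are shortened here and named 2571 of 11425 genes (22.5%). Named were the REEP genes, per comparison the 2 highest and 2 lowest log2 fold changes of the ER lists, their 3 highest means, and the 5 named genes most like each REEP gene. The first of these also holds the authors' fold changes and p-values, which were not used beyond the choice of members. The fits were also run on simulated counts, with large changes in well expressed genes and less spread between samples than REEP3 and REEP6 show. That run does not tell whether differences could be found in these data. No replicate was another one counted again (chi-square per degree of freedom of at least 277 over 19 pairs). Alternatives were other pseudocounts, filters, scaling, samples, a replicate block and tools. Sequences and positions were not analysed here.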

Additional observations from a re-analysis of the deposited data

Results flagged for a closer look

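Each group of 4 or 5 samples was searched for a sample whose gap to the nearest other took up most of the range of the group, for REEP3 and REEP6, as normalized counts and as log2 values. Of 8 such searches, 3 found a sample, with FR replicate 4 found for REEP3 on both scales. The cutoffs find about 1 in 20 only where values are normally distributed, which was not tested. The searches also share samples, so no excess over chance can be read from their count. FR replicate 4 had REEP3 at a normalized count of 136, or 7.10 on the log2 scale, while the other FR samples were at 1.68 to 4.31, or 1.42 to 2.41 on the log2 scale. FR replicate 1 had REEP6 at a log2 value of 1.66, while the other FR samples were at 7.31 to 9.14. VMAT, with 3 samples, was not searched.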

How the results depend on the processing

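REEP3 in VIM vs. FR stayed below 0, with no call, in 8 alternatives with all samples (-2.94 with edgeR and -2.76 with DESeq2, the others -0.79 to -0.52) and could not be fitted with a normalized count of at least 10, which removed the gene. With each sample left out in turn it ran from -0.92 to 0.50, and it was above 0 only without FR replicate 4. REEP6 in VMAT vs. FR was above 0 with the replicate block (0.47), edgeR (0.57) and DESeq2 (1.23), and ran from -2.69 to 1.54 with each sample left out. For VIM over VMAT, REEP3 was at -6.57 with a pseudocount of 10, by construction nearer to 0, and -8.56 to -7.39 with each sample left out. In VMAT vs. FR it was 6.84 to 8.52 with each sample left out, and 5.43 (edgeR) to 8.54 (replicate block) in the other alternatives. With each sample left out, REEP6 ran from -5.47 to -3.60 in VIM vs. FR and from -5.73 to -1.50 in VIM vs. VMAT. In the other alternatives it ran from -4.98 (DESeq2) to -3.17 (pseudocount of 10) in the former and from -6.17 (DESeq2) to -2.83 (pseudocount of 10) in the latter. Of the 18 ER-shaping genes, DESeq2 called 1 in each comparison and edgeR 1 in VIM vs. VMAT, each a REEP gene in a comparison that it was chosen from; every other alternative and every sample left out called 0. Over all genes, DESeq2 called 505 genes DE between VIM and FR, 354 between VMAT and FR and 295 between VIM and VMAT, edgeR 0, 1 and 1 in the same order, and limma 0 in each. Equal column totals moved the median of all genes in VIM vs. VMAT from -0.08 to -0.19, and edgeR moved it in VMAT vs. FR from 0.01 to -0.21. The largest moves came without VMAT replicate 2, where the median turned to 0.26 in VIM vs. VMAT and to -0.41 in VMAT vs. FR. Same replicate numbers were not treated as pairs. The correlation of deviations was -0.03 to 0.01 over 10 pairs, which cannot exclude that some samples shared a collection. The replicate block changed no other direction and no call.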
